A study of Mus musculus with 10 samples.

Results

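The genes described here are 10 genes by which absorptive enterocytes digest and take up sugars and peptides, out of 35006 gene rows counted in each library. They were taken by name: the disaccharidases Sis, Mgam, Lct and Treh, the sugar transporters Slc5a1, Slc2a2 and Slc2a5, the surface peptidases Anpep and Dpp4, and the peptide transporter Slc15a1. All 10 passed the filter on low counts that left 13706 genes for testing, so none dropped out.

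The libraries are poly-A RNA-seq of epithelial cells sorted from small intestinal crypts of EF1a-OSCAR mice on a C57BL6/J background. OSCAR is a reporter in which a fluorescent protein (VeN90) loses its signal when the transcription kinase CDK9 phosphorylates it, while mCherry from the same mRNA serves as the reference. A high OSCAR ratio therefore marks cells with little CDK9 activity, and the EF1a level is the overall brightness of the reporter. All mice carried the reporter in Rosa26 under the EF1a promoter, with its stop cassette removed by a germline Vasa-Cre deleter, so every sorted group shares that allele and there is no group without it. Live EpCAM+ cells were sorted into 5 populations of 10000 cells, with 2 libraries each. P1 was OSCAR low and EF1a low, P2 was OSCAR high and EF1a low, P3 was OSCAR low and EF1a high, P4 was OSCAR medium and EF1a low, and P5 was OSCAR medium and EF1a high. The age of the mice is not given in the sources used here, nor whether libraries with the same number came from the same mouse, and the study calls the 2 libraries of a population biological replicates. Whether a population held fewer enterocytes or enterocytes with less of an RNA cannot be told apart in bulk libraries.

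Counts on genes per library went from 3857612 to 6485823, and the 10 genes held between 0.0868% and 1.68% of them. Both libraries labelled P3 stood apart, with 36.1% and 59.2% of counts on mitochondrial genes against 1.04% to 5.19% in the other 8. The libraries labelled P2 carried the secretory markers. Levels are given as CPM, counts scaled to library sizes after TMM adjustment, so they are not shares of a library's counts. Summed CPM of the 6 Paneth cell genes were 561640 and 398553 in P2, against 501 to 62844 in the other 8 libraries. The study's text gives the secretory signature to the population it calls P3, so the names P2 and P3 are in doubt, and both are used here only as the labels carry them. The 4 cell cycle genes summed to 64.3 and 49.5 CPM in the libraries labelled P2 and to 611 and 1003 in those labelled P3. The study describes OSCAR high cells as negative for the proliferation marker Ki67. It also calls Hnf4a enriched in its P2, though more expressed in its P1. Here Hnf4a was at 420 and 667 CPM in the libraries labelled P2 and at 970 and 929 in those labelled P3. These values do not settle the names. The cell cycle genes summed to 975 and 1598 in P5 and to 517 and 522 in P4, and the study places the dividing cells in P5. The study's text also gives P5 marginally more enterocyte marker enrichment than P4, and here the 8 enterocyte markers had higher fitted values in P5. Their median log2 fold change was 0.78, with none called at an adjusted p under 0.01. The study's plot of single marker genes, such as Vil1, nevertheless sits better, by eye, with the names P4 and P5 exchanged. The sign of every difference between P5 and P4, and the EF1a comparison made with it, therefore rests on the labels. So does the match at low EF1a of P1 or P2 against P4. No library was renamed.

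Sugars reach the brush border of the small intestine as disaccharides and short glucose chains, which enzymes anchored in the microvillus membrane split into single sugars. Sucrase-isomaltase (Sis), maltase-glucoamylase (Mgam), lactase (Lct) and trehalase (Treh) do this work, after which Slc5a1 (SGLT1) takes up glucose and galactose with sodium, Slc2a5 (GLUT5) takes up fructose, and Slc2a2 (GLUT2) passes sugars on to the blood side. Aminopeptidase N (Anpep) and dipeptidyl peptidase 4 (Dpp4) trim peptides at the same membrane, and Slc15a1 (PEPT1) carries the short products in with protons. These proteins are classically found on differentiated villus enterocytes, and several of them are controlled by the transcription factors Cdx2, Hnf4a and Gata4.

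In the mm9 build used for the counts, the disaccharidase genes lie at chr3:72692479-72771785 (Sis, minus strand), chr6:40578830-40719122 (Mgam, plus strand), chr1:130181333-130224895 (Lct, minus strand) and chr9:44481316-44494388 (Treh, plus strand). The sugar transporter genes lie at chr5:33446868-33505521 (Slc5a1), chr3:28596825-28627278 (Slc2a2) and chr4:149493392-149518278 (Slc2a5), all on the plus strand. The peptide genes lie at chr7:86966689-86993096 (Anpep), chr2:62168130-62250288 (Dpp4) and chr14:121858841-121904475 (Slc15a1), all on the minus strand. Counts were made without strand, and Dpp4 shares 232 exonic bases with Gm13561 on the opposite strand and Treh shares 2 with Phldb1, so reads there cannot be assigned to a strand. The other 8 genes share no exonic base with another annotated gene.

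Promoter windows of 300 bases, from 250 before to 50 after the transcript start, were read from RefSeq for all 10 genes in the GRCm38.p6 build. Letters known from the sites of enterocyte transcription factors were searched on both strands: TTTAT (CDX), GATAA (GATA) and CAAAG (HNF4). TTTAT occurred in 4 of the 10 windows (Sis, Mgam, Lct, Dpp4) and in 40.0% of 32851 mouse promoter windows of the same length. GATAA occurred in 4 of 10 against 25.4% and CAAAG in 7 of 10 against 53.9%. The windows of Sis and Lct, whose levels moved with those of most other members, and that of Slc2a5, whose level moved least with them, are given here. Capitals mark these letters on either strand, and neighbouring matches may overlap, as TTTAT and the reverse of GATAA do in Lct.
Sis, chr3:72967814-72968113, minus strand: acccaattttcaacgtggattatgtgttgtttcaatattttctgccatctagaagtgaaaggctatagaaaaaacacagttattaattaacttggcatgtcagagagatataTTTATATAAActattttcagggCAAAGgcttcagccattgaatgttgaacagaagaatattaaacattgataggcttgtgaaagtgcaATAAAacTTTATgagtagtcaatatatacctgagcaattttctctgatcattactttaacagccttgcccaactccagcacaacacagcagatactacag
Lct, chr1:128328269-128328568, minus strand: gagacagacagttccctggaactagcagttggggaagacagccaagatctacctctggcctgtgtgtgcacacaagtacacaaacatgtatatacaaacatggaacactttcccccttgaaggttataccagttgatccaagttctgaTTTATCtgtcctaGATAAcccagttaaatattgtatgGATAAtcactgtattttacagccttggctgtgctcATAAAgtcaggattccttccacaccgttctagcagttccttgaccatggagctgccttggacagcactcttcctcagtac
Slc2a5, chr4:150119094-150119393, plus strand: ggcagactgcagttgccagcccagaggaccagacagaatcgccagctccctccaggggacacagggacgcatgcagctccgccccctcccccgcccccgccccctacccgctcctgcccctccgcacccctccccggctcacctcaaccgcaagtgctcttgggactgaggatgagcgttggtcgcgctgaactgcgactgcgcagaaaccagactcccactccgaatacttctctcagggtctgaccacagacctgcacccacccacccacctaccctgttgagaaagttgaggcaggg
Slc2a5 and Anpep were the members whose windows held none of the 3. Across the 10 libraries, Pearson's r with the members' median was 0.735 for Slc2a5 but 0.929 for Anpep, near the 0.937 of Sis. Their windows were 65.3% and 72.3% G or C, against 34.0% for Sis and a median of 52.7% over all windows. A match describes the letters only, and its absence says only that they are not in this window.

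The question for these genes is whether the sorted populations differ in enterocyte function. Over the 5 populations, Mgam, Lct and Treh passed the joint test at an adjusted p under 0.01, 3 of the 10 genes, while 36.3% of all tested genes passed it. Their adjusted p-values were 0.00618, 0.00682 and 0.00606 in the quasi-likelihood test of edgeR, adjusted by Benjamini and Hochberg over all genes. The count was 0 without either P1 library or either P2 library, 1 without replicate 1 of P5, 5 without replicate 2 of P3 and 5 without both libraries labelled P3. It was 6 with DESeq2 and 6 at a threshold of 0.05, where 7350 and 7929 genes were called in all, and 10 without the filter on low counts, where 7931 were, beside 4971 here. With the replicate number as a block in the fit it was 7, where 5710 genes were called in all.

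**Figure D1:**
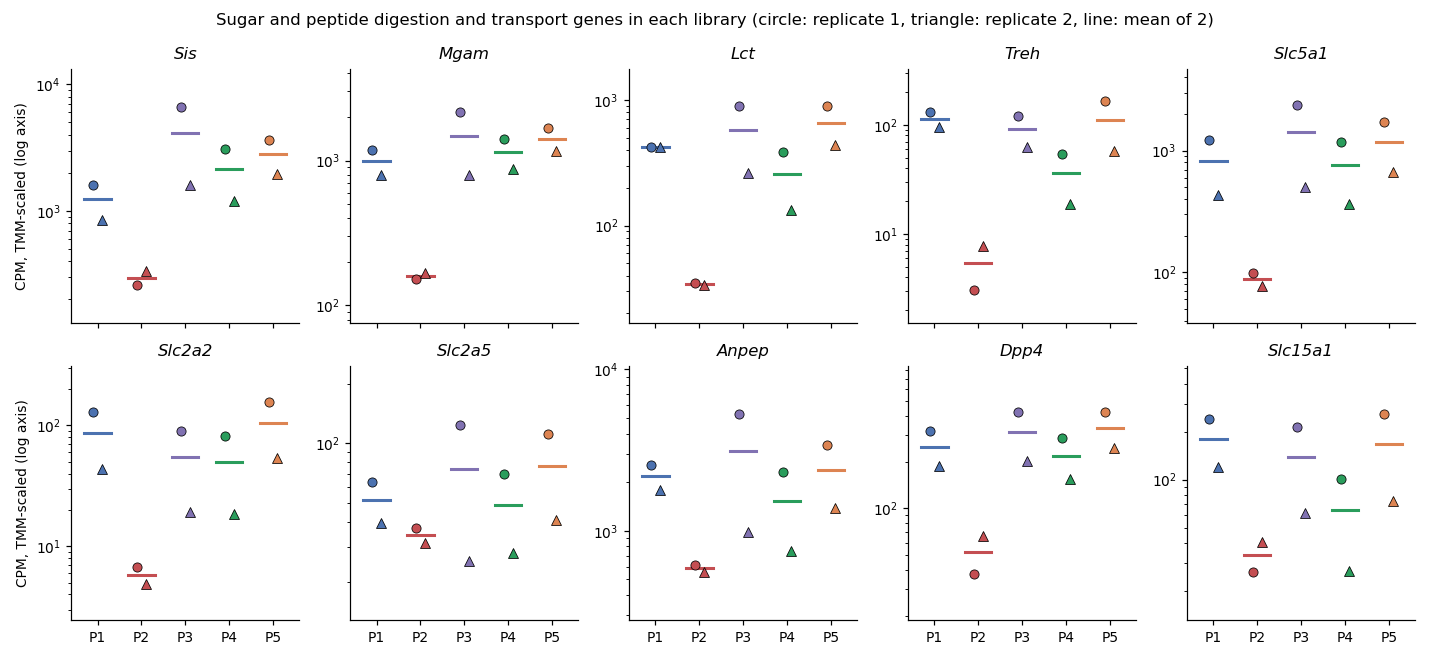
TMM-scaled CPM of the 10 genes (log axes) in each library of the populations labelled P1 to P5; circles are replicate 1, triangles replicate 2 and lines the mean of 2. Both P2 libraries lie below the other 8 libraries for 8 of the 10 genes, Slc2a5 and Slc15a1 being the others, and replicate 1 lies above replicate 2 for every gene in P1, P3, P4 and P5.

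The libraries labelled P2 held the lowest levels. Both of them lay below all 8 other libraries for Sis, Mgam, Lct, Treh, Slc5a1, Slc2a2, Anpep and Dpp4, 8 of 10 genes, an arrangement that 15.0% of all tested genes showed. Against P1, Mgam, Lct, Treh and Dpp4 fell, 4 of 10 genes, while 15.2% of all tested genes were called lower and 29.1% were called in either direction. The median log2 fold change of the 10 genes was -2.53, beside 0.01 over all genes, and both P2 libraries lay below both P1 libraries for all 10 genes, as for 38.6% of all tested genes. The count of 4 was 0 without replicate 1 of P2, 1 without replicate 2 of P2, 1 without replicate 1 of P1 and 2 without replicate 2 of P1. It was 8 with DESeq2, 8 at a threshold of 0.05, 9 without the filter on low counts and 6 with the replicate block.

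Lct, which splits milk sugar, was at 34.7 and 33.5 CPM in P2, 420 and 419 in P1, 887 and 262 in P3, 887 and 434 in P5, and 383 and 132 in P4. The P2 pair was below every other library, while the ranges of P1 and P3 and of P3 and P5 overlapped. Its mean in P1 was 12.3 times its mean in P2, and the log2 fold change of P2 against P1 was -3.62 ± 0.69 (SE; n = 2 and 2; edgeR adjusted p = 0.00287). Treh, the trehalase, was at 3.05 and 7.81 CPM in P2, which were 10 and 35 counts, against 131 and 96.0 in P1, 119 and 63.1 in P3, 164 and 57.4 in P5, and 54.2 and 18.8 in P4. P2 was again lowest with no overlap, and Treh had the largest fold of the 10 genes against P1, 20.9 between the means, with a log2 fold change of -4.34 ± 0.75 (edgeR adjusted p = 0.00175).

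Mgam, which removes glucose from the ends of starch fragments, was at 151 and 167 CPM in P2, 1178 and 800 in P1, 2158 and 794 in P3, 1669 and 1164 in P5, and 1409 and 876 in P4. Outside P2 the ranges of neighbouring populations overlapped. Mgam was the one member that passed the threshold against both P1 (log2 fold change -2.64 ± 0.51, edgeR adjusted p = 0.00312) and P4 (-2.85 ± 0.52, edgeR adjusted p = 0.00408). Sis, which splits sucrose and isomaltose, was at 260 and 333 CPM in P2, 1612 and 852 in P1, 6664 and 1596 in P3, 3644 and 1961 in P5, and 3096 and 1208 in P4. The P2 pair was lowest, but the spread within the other pairs was wide, and the log2 fold change of Sis was -2.05 ± 0.73 against P1 (edgeR adjusted p = 0.0443) and -2.86 ± 0.76 against P4 (edgeR adjusted p = 0.0207), past the threshold in neither.

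Slc5a1 was at 99.1 and 76.5 CPM in P2, 1213 and 435 in P1, 2365 and 501 in P3, 1705 and 672 in P5, and 1168 and 365 in P4. Slc2a2, the basolateral carrier and the member with the lowest level per kilobase of exon in P2, was at 6.71 and 4.91 CPM there (22 counts in each library), against 129 and 43.5 in P1, 90.8 and 19.1 in P3, 156 and 54.3 in P5, and 81.3 and 18.5 in P4. Neither overlapped between P2 and another population, and neither passed the threshold against P1, with log2 fold changes of -3.23 ± 0.90 (edgeR adjusted p = 0.0161) and -3.91 ± 1.05 (edgeR adjusted p = 0.0139). Slc2a5, the fructose carrier, was at 37.5 and 31.2 CPM in P2, 63.5 and 39.5 in P1, 123 and 25.5 in P3, 111 and 41.1 in P5, and 69.8 and 27.9 in P4. It was the flattest of the members: its P2 values lay inside the ranges of P3 and P4, and its means in P1 and P2 differed least among the 10 genes, with a log2 fold change of -0.59 ± 0.73 (edgeR adjusted p = 0.536).

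Anpep, the member with the highest level per kilobase of exon, was at 609 and 559 CPM in P2, 2551 and 1797 in P1, 5276 and 986 in P3, 3387 and 1384 in P5, and 2322 and 745 in P4. Dpp4 was at 37.5 and 66.5 CPM in P2, 318 and 188 in P1, 424 and 205 in P3, 425 and 247 in P5, and 285 and 155 in P4. Both genes were lowest in P2 with no overlap, and of the pair only Dpp4 passed the threshold against P1 (log2 fold change -2.28 ± 0.51, edgeR adjusted p = 0.00614, against -1.90 ± 0.81 and 0.0821 for Anpep). Slc15a1 was at 26.2 and 40.8 CPM in P2, 241 and 120 in P1, 215 and 61.9 in P3, 259 and 73.1 in P5, and 101 and 26.8 in P4. The P4 value of 26.8 fell inside the P2 range, and the log2 fold change of P2 against P1 was -2.42 ± 0.84 (edgeR adjusted p = 0.0403).

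Against P4, 1 of 10 genes (Mgam) fell in P2, beside 6.31% of all tested genes called lower and 14.3% called either way, although the median log2 fold change of the 10 genes was -2.77 and that of all genes 0.05. Both P2 libraries lay below both P4 libraries for 8 of 10 genes, as for 33.5% of all tested genes. The count of 1 was 0 without any one P2 or P4 library and 4 without either P3 library. It was 7 with DESeq2, 7 at a threshold of 0.05 and 9 without the filter on low counts, where 3192, 3987 and 3500 genes were called in all, beside 1962 here. With the replicate block it was 7, where 2391 genes were called in all. Of the 8 general enterocyte markers, 1 (Alpi) fell against P4, and 3 had higher and 5 lower fitted values in P2, with a median log2 fold change of -0.91. Vil1, Krt20 and Fabp2 had log2 fold changes of 0.15, 1.51 and 0.51, none past the threshold. Against the libraries labelled P3, which have the high mitochondrial share and whose name is in doubt like that of P2, Sis, Mgam, Lct, Treh, Slc5a1 and Dpp4 fell, 6 of 10 genes, beside 10.6% of all tested genes called lower and 21.0% called either way. That count was 0 without either P2 library and 2 without replicate 1 of P3. The Paneth, goblet and enteroendocrine markers moved the other way: the 7 goblet genes summed to 56062 and 125368 CPM in P2 and to 1982 to 10458 in the other 8 libraries, and the 7 enteroendocrine genes to 4682 and 11256 in P2 and to 19.8 to 574 in the others. The 6 tuft cell genes summed to 497 and 884 CPM in P2 and to 17.8 to 200 elsewhere, and the 4 cell cycle genes to 230 to 1598 outside P2. None of the 6 Paneth, 7 goblet or 7 enteroendocrine genes was at 0 in both P2 libraries, and their part in the lower levels was not tested.

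**Figure D2:**
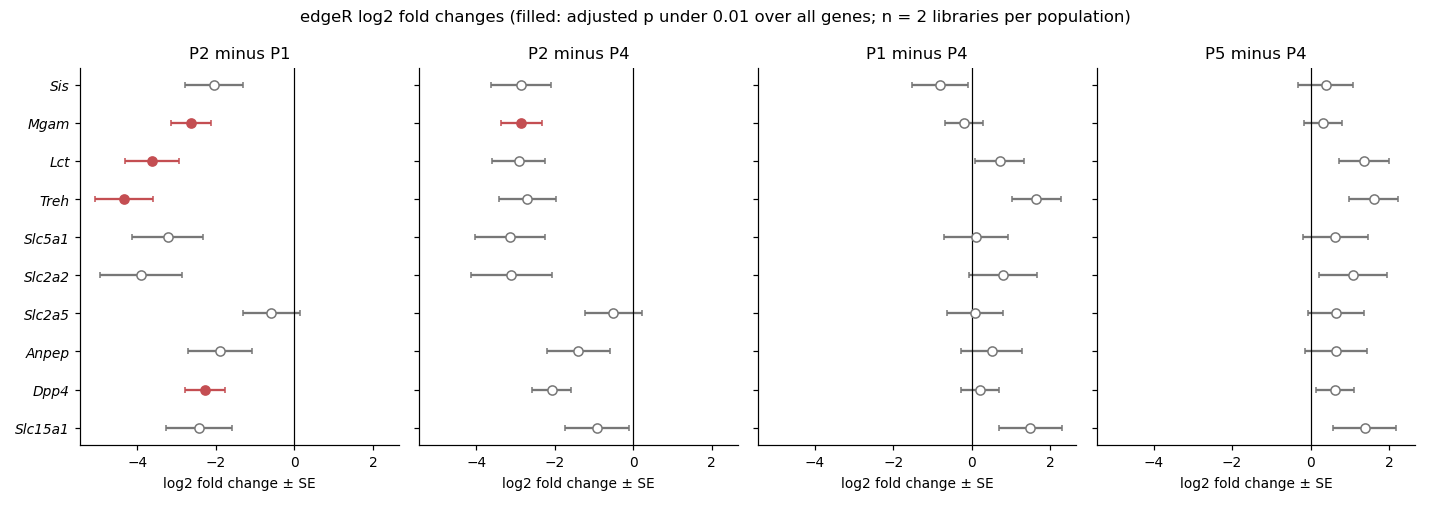
Log2 fold changes with standard errors of the 10 genes in 4 comparisons, from edgeR with 2 libraries per population; filled points passed an adjusted p of 0.01 over all genes. All 10 points lie left of 0 for P2 against P1 and P4, 4 of them filled against P1 and 1 against P4, while no point is filled for P1 or P5 against P4.

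By the labels, P1 against P4 compares OSCAR low with OSCAR medium cells at low EF1a. None of the 10 genes passed the test in it, although 23.4% of all tested genes did. At an unadjusted p under 0.05 there was 1 of the 10 genes, Treh, against 51.9% of all tested genes, and DESeq2 also called 0. The median log2 fold change was 0.35 over the 10 genes and -0.06 over all genes. Treh (1.64 ± 0.62, edgeR adjusted p = 0.0593) and Slc15a1 (1.49 ± 0.80, edgeR adjusted p = 0.161) had the highest values and Sis (-0.80 ± 0.71, edgeR adjusted p = 0.381) the lowest. Both P1 libraries lay above both P4 libraries for Lct, Treh and Slc15a1, 3 of 10 genes, as for 37.7% of all tested genes. The signs of Sis, Mgam, Slc5a1, Slc2a2, Slc2a5, Anpep and Dpp4 each turned when 1 library of P1 or P4 was left out, and those of Slc5a1, Slc2a5 and Dpp4 also when mitochondrial genes were removed before scaling.

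Of 8 general enterocyte marker genes, 3 were called higher in P1 than in P4 and none lower, beside 23.4% of all tested genes called either way. Their median log2 fold change was 3.16. Vil1, a structural protein of the microvillus, was at 5311 and 6718 CPM in P1 against 1063 and 708 in P4 (log2 fold change 2.76 ± 0.54, edgeR adjusted p = 0.00423), and Fabp2, an intestinal fatty acid binding protein, was at 17931 and 16605 against 994 and 308 (4.73 ± 1.09, edgeR adjusted p = 0.00843). Krt20, a keratin of mature epithelium, was at 6426 and 5708 CPM against 310 and 214 (4.53 ± 0.73, edgeR adjusted p = 0.00197). Alpi, the brush border alkaline phosphatase, was at 366 and 263 CPM in P1 and 267 and 172 in P4 (0.52 ± 0.50, edgeR adjusted p = 0.425), a difference of the size seen among the 10 genes. The members and the markers were not tested against each other as lists.

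Genes that act on the sugars besides the members gave 2 calls in 14 tested genes in P1 against P4, both higher and none lower. Over all tested genes 23.4% were called, and the median log2 fold change of the 14 sugar genes was 0.78. Khk, which carries out the first step of fructose breakdown, was at 757 and 632 CPM in P1 against 190 and 148 in P4 and rose (log2 fold change 2.04 ± 0.39, edgeR adjusted p = 0.00378). Slc2a5, which brings the fructose in, had a log2 fold change of 0.08 ± 0.71 in this comparison. Slc37a4, which moves glucose 6-phosphate into the endoplasmic reticulum, was at 42.4 and 30.6 CPM in P1 and 79.1 and 53.9 in P4 and did not pass the test.

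Other peptidases numbered 14 tested genes of 15 listed. Pepd and Lap3, cytosolic enzymes that finish peptide breakdown, rose in P1 against P4, 2 of 14 genes, beside 23.4% of all tested genes called. None of the 14 was called lower, and their median log2 fold change was 1.29. Lap3 was at 2304 and 1923 CPM in P1 against 154 and 102 in P4 (4.05 ± 0.63, edgeR adjusted p = 0.00180), and Pepd at 1318 and 1651 against 142 and 71.0 (3.80 ± 0.72, edgeR adjusted p = 0.00354). Cndp2, a cytosolic dipeptidase, was at 2967 and 2539 CPM against 341 and 142, just short of the threshold (3.51 ± 0.85, edgeR adjusted p = 0.0103). Enpep and Ace, which like Anpep and Dpp4 work at the cell surface, had log2 fold changes of -0.88 ± 0.84 and 1.19 ± 1.01 (edgeR adjusted p = 0.420 and 0.366).

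Amino acid transporters gave 1 call in 12 tested genes of 13 listed in P1 against P4, beside 23.4% of all tested genes. Slc1a1, the glutamate carrier, fell in P1, at 14.9 and 20.9 CPM against 72.9 and 88.4 in P4 (log2 fold change -2.17 ± 0.27, edgeR adjusted p = 0.00102). Slc43a2, Slc3a2, Slc6a19 and Slc7a8, the most abundant of the list, had log2 fold changes of 0.02, -0.36, 0.52 and -0.63, none past the threshold. Among the 7 transcription factors listed as regulators of enterocyte genes, 1 was called, Maf, against the same share of all tested genes. Maf rose, at 533 and 633 CPM in P1 against 73.2 and 44.0 in P4 (3.32 ± 0.74, edgeR adjusted p = 0.00726). Hnf4a was at 1165 and 1408 CPM in P1 and 720 and 875 in P4, Cdx2 at 204 and 260 and at 156 and 198, and Gata4 at 192 and 230 and at 153 and 144, with edgeR adjusted p-values of 0.104, 0.244 and 0.103. Mlxipl, the carbohydrate response factor, was at 114 and 149 against 296 and 262, with an edgeR adjusted p of 0.0215.

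**Figure D3:**
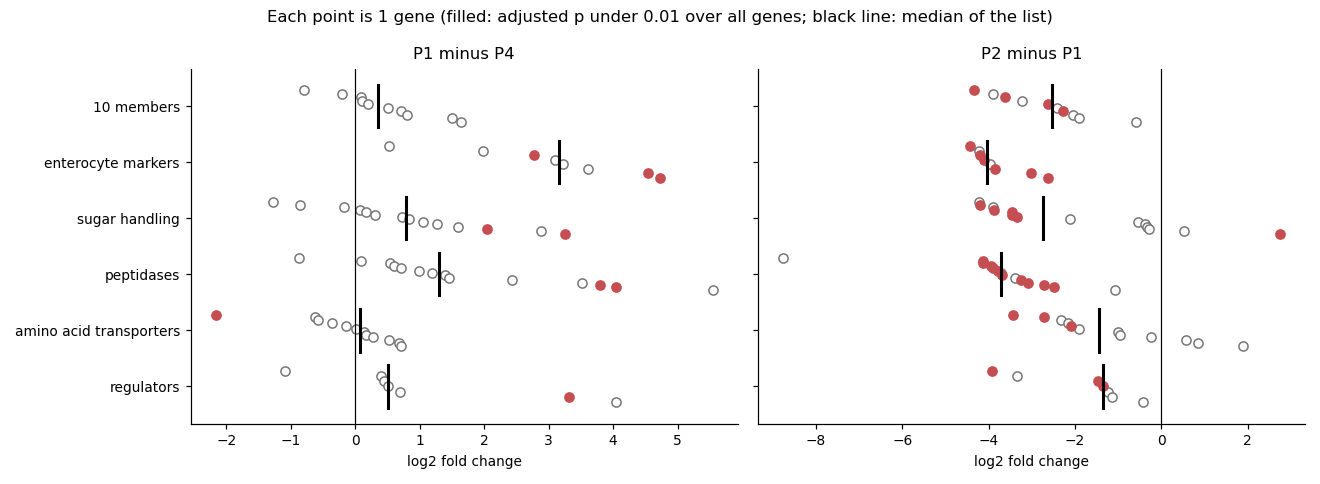
Log2 fold changes of single genes for P1 against P4 (left) and P2 against P1 (right), by list; filled points passed an adjusted p of 0.01 over all genes and black lines are list medians. On the left the 10 members centre on 0.35 with no filled point and the enterocyte markers on 3.16 with 3, while on the right the members centre on -2.53 and the markers on -4.05.

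In P2 against P1, 29.1% of all tested genes were called and 15.2% were called lower. Of the sugar genes, 5 of 14 fell, among them Khk, and 1 rose, Slc2a1, a broadly expressed glucose carrier. Of the peptidases, 10 of 14 fell, among them Lap3, Pepd and Cndp2, and none rose. Of the amino acid transporters, 3 of 12 fell, and of the regulators, Cdx2, Gata4 and Maf, 3 of 7. Cdx2 was at 73.8 and 108 CPM in P2 (log2 fold change -1.35 ± 0.26, edgeR adjusted p = 0.00311) and Gata4 at 70.4 and 81.0 (-1.48 ± 0.24, edgeR adjusted p = 0.00127). Of the 8 enterocyte markers 6 fell, with a median log2 fold change of -4.05.

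Immune genes need to stand beside the P1 values, since T cells also make Dpp4 and myeloid cells Anpep. The 6 lymphocyte markers summed to 868 and 258 CPM in P1, 154 and 2.66 in P3, 15.5 and 22.5 in P2, and 0.614 to 4.13 in P4 and P5. In P1 none of the 6 was at 0 in both libraries, and Cd8a was at 122 and 23.9 CPM and Gzma at 392 and 130, whereas in P2 3 of the 6 were at 0 in both. Their part in the Dpp4 level of P1 was not tested. The 4 myeloid markers summed to between 2.44 and 28.4 CPM in the 10 libraries, and the 4 stroma and vessel markers to 4.66 at most.

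**Figure D4:**
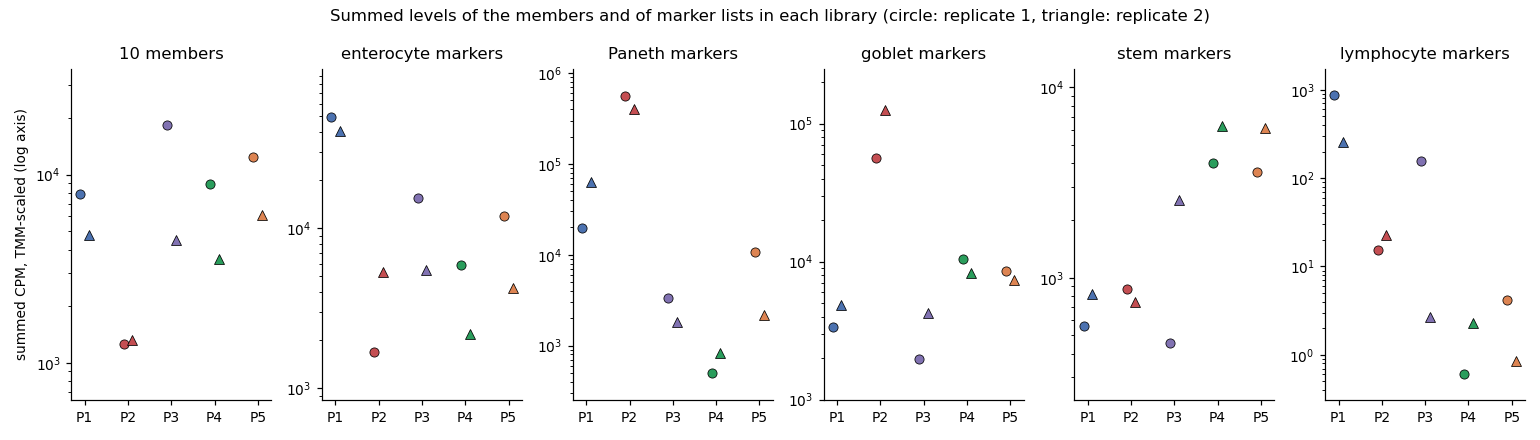
Summed TMM-scaled CPM (log axes) of the 10 genes and of marker lists in each library; circles are replicate 1 and triangles replicate 2. The 10 genes sum to 1266 and 1319 in P2 and to 3574 to 18323 elsewhere, enterocyte markers are highest in P1 (49741 and 40756), Paneth and goblet markers in P2, and stem markers in P4 and P5 (3572 to 6267).

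P5 against P4 compares high with low EF1a at OSCAR medium, and no gene of the 13706 passed the test (0.00%), the 10 genes included. At an unadjusted p under 0.05 there was 1 of the 10 genes, Treh, against 2.55% of all tested genes, and DESeq2 called 0 of the 10. The fitted value was above 0 for all 10 genes, with a median log2 fold change of 0.64 beside 0.01 over all genes. Both P5 libraries lay above both P4 libraries for Lct and Treh, 2 of 10 genes, as for 16.0% of all tested genes. Between libraries of the same number, P5 was above P4 for all 10 genes in both replicates, as for 30.7% of all tested genes. The values went from 0.31 ± 0.48 for Mgam to 1.60 ± 0.62 for Treh, with Lct at 1.36 ± 0.63 and Slc15a1 at 1.38 ± 0.80, each with an edgeR adjusted p of 1. Those of Sis, Slc5a1, Slc2a5 and Anpep turned negative when replicate 1 of P5 was left out, and that of Sis also without replicate 2 of P4.

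In the libraries labelled P3 no member passed the test against P1 or P5. Against P1 none of the 10 passed (15.6% of all tested genes did), with 1 of 10, Sis, at an unadjusted p under 0.05 (44.9% of all tested genes) and 0 called by DESeq2. None passed against P5 (0.00% of all tested genes), with 0 at an unadjusted p under 0.05 (11.6% of all tested genes) and 0 called by DESeq2. The median log2 fold changes were 0.47 and -0.09. The EF1a difference at OSCAR low (P3 minus P1) set against that at OSCAR medium (P5 minus P4) gave none of the 10 genes, beside 0.810% of all tested genes, with 0 at an unadjusted p under 0.05 (34.0% of all tested genes) and 0 called by DESeq2. Its largest value was that of Treh, -1.93 ± 0.87 on the log2 scale (edgeR adjusted p = 0.152).

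The 2 libraries of a population differed widely in these genes. Replicate 1 was above replicate 2 for all 10 genes in P1, P3, P4 and P5, and for 5 of 10 in P2, whereas 41.6% to 49.5% of all tested genes were higher in replicate 1. The median fold between the 2 libraries was 3.82 in P3, 2.90 in P4, 2.49 in P5, 1.65 in P1 and 1.29 in P2. The widest was that of Anpep in P3, 5.35-fold. Fabp6, a bile acid binding protein of the ileum, was the other way round, higher in replicate 2 in all 5 populations, at 1.60 and 26.7 CPM in P5, 1.11 and 5.85 in P4, 1.59 and 40.4 in P3, 0 and 4.68 in P2, and 8.64 and 99.5 in P1. Gata4, which marks the upper small intestine, was higher in replicate 2 in 2 of 5 populations. Of the 4 tested genes listed for position along the gut, Cybrd1, an iron reductase of the duodenum, rose in P1 against P4, at 3.22 and 11.9 CPM against 0.369 and 0.298 (log2 fold change 4.44 ± 0.74, edgeR adjusted p = 0.00284), and none fell. In that comparison 23.4% of all tested genes were called. Cybrd1 was at 165 and 113 CPM in P2, higher than in P4 (8.63 ± 0.74, edgeR adjusted p = 0.000460) and P1 (4.19 ± 0.55, edgeR adjusted p = 0.000734), and at 0 in both libraries labelled P3. Gata4 went the other way, called lower in P2, at 70.4 and 81.0 CPM, than in P1, at 192 and 230. The part of gut position in the replicate spread was not tested.

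**Figure D5:**
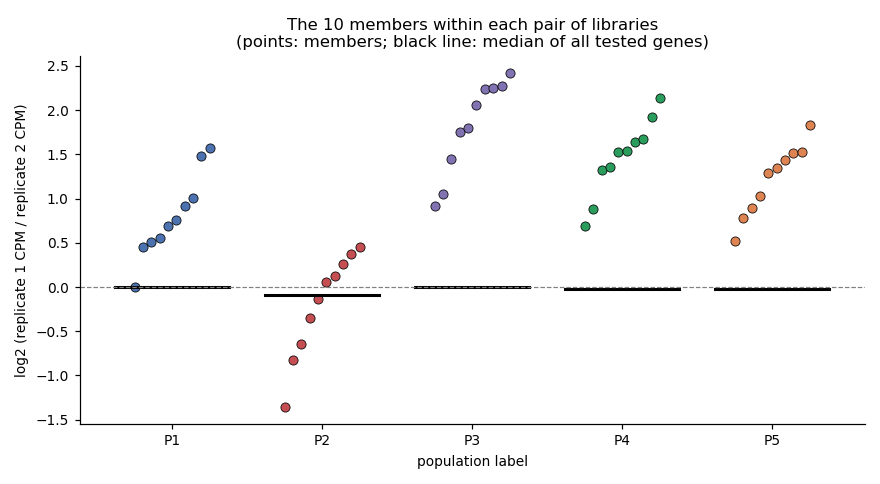
Log2 ratio of replicate 1 to replicate 2 CPM for each of the 10 genes (points) in each population, with the median of all tested genes as a black line. The points centre on 0.72 in P1, 1.93 in P3, 1.54 in P4 and 1.32 in P5 and spread around 0 in P2, while the medians of all genes lie between -0.09 and 0.

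Per kilobase of exon, the level averaged over the 10 libraries was highest for Anpep, at 506 CPM per kilobase, followed by Sis at 330, Slc5a1 at 209, Mgam at 160, Lct at 60.8, Slc15a1 at 37.3, Dpp4 at 37.2, Treh at 34.9, Slc2a2 at 22.0 and Slc2a5 at 16.8. In P2 the order changed, with Mgam (24.5 CPM per kilobase) above Slc5a1 (21.3). At the lower end of P2, Slc2a5 (10.1) was above Dpp4 (8.23), Lct (5.32), Treh (2.65) and Slc2a2 (2.11). In P1 Slc2a5 was last at 15.1.

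Across the 10 libraries, Pearson's r between the log2 CPM of 2 members ranged from 0.591 (Treh and Slc2a5) to 0.974 (Mgam and Dpp4), with a median of 0.900 over 45 pairs. With the members' median, r was 0.735 for Slc2a5 and 0.882 to 0.990 for the other 9. The genes outside the list with the highest r to that median were Apob (0.992), the apolipoprotein of chylomicrons, Cyp2d26 (0.991), Mep1b (0.990), a subunit of the brush border metallopeptidase meprin, Soat2 (0.989), which esterifies cholesterol, and Slc16a10 (0.988), an aromatic amino acid carrier. Apob was at 181 and 234 CPM in P2, 1689 and 980 in P1, 2288 and 1005 in P3, 2100 and 1286 in P5, and 1404 and 664 in P4, with replicate 1 above replicate 2 in the same 4 populations as the members. These correlations describe 10 libraries that include 5 pairs from the same gates and carry no test.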

How the data were processed

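Counts per gene were deposited by the authors as one table for each of the 10 libraries. Per the labels and the study's methods, reads were checked with FastQC 0.11.5, aligned to mm9 with TopHat 2.1.0, and counted over exons with HTSeq 0.11.2 without strand, from TruSeq poly-A libraries. Rows naming no gene stayed out of library sizes, and 206 rRNA gene names were removed, as in the study.

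The counts were tested here with edgeR 4.0.16 (R 4.3.3): TMM scaling, filterByExpr, quasi-likelihood tests over all 10 libraries with the population as the one factor, and Benjamini-Hochberg adjustment over 13706 genes, called at an adjusted p under 0.01. The steps were tested on simulated data. CPM are TMM-scaled, and log2 CPM use a prior count of 2. Exon lengths and overlaps come from the NCBIM37 annotation, which held 33643 of the 35006 names. A count of 3 corresponded to 0.298 to 1.59 CPM, which covers counting error only. The standard error is the log2 fold change over the root of F.

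The members and lists were chosen with earlier results of these data known. Named are the 10 members, list genes by count with the most abundant as examples, and the 5 genes most correlated with the members' median. Further list genes (Vil1, Krt20, Fabp2, Alpi, Pepd, Slc1a1, Slc2a1, Maf, Cd8a and Gzma) were named after their values were seen. Alternatives were other scaling (RLE), no filter, DESeq2 1.42.0, a threshold of 0.05, rRNA kept, mitochondrial genes removed, a replicate block, and each library left out. Some list genes are counted but not reported here by name.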

Additional observations from a re-analysis of the deposited data

Results flagged for a closer look

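Slc1a1, the glutamate carrier of the amino acid transporter list, differed in its EF1a difference between the 2 OSCAR levels. The EF1a difference (high minus low) at OSCAR low exceeded that at OSCAR medium by 3.34 ± 0.38 on the log2 scale (SE; edgeR adjusted p = 0.00887 for the difference itself). Slc1a1 was at 14.9 and 20.9 CPM in P1 and reached 197 and 135 in those labelled P3, and it was at 63.6 and 83.9 in P5 and 72.9 and 88.4 in P4. The libraries labelled P3 had the high mitochondrial share, and the names P2 and P3 are in doubt. In the libraries labelled P2, Slc1a1 was at 2.44 and 2.90 CPM, so the direction of this difference rests on the labels. None of the 10 digestion and transport genes met this mark.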

How the results depend on the processing

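Without the filter on low counts more genes were called, among the 10 and in all: 10 over the 5 populations (7931 of all genes, against 4971 with the filter), 9 for P2 against P1 (5508 against 3989), 9 for P2 against P4 (3500 against 1962), 10 for P2 against P3 (4439 against 2881), 2 for P1 against P4 (5026 against 3214), 3 for P5 against P4 (194 against 0), 1 for P3 against P1 (4005 against 2132), 1 for P3 against P5 (302 against 0) and 3 for the EF1a difference between OSCAR levels (2298 against 111). DESeq2 and a threshold of 0.05 each gave 6 over the 5 populations (7350 and 7929 of all genes), 8 for P2 against P1 (5143 and 6462) and 7 for P2 against P4 (3192 and 3987). Without both libraries labelled P3 the joint count was 5. The cause was not tested.

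Leaving out 1 library at a time gave 0 to 5 over the 5 populations, 0 to 6 for P2 against P1, 0 to 4 for P2 against P4 and 0 to 6 for P2 against P3. Fold changes that turned then ranged, for P1 against P4, from -1.33 to 0.017 (Sis), -0.51 to 0.16 (Mgam), -0.81 to 1.16 (Slc5a1), -0.19 to 2.21 (Slc2a2), -0.44 to 0.87 (Slc2a5), -0.098 to 1.53 (Anpep) and -0.22 to 0.69 (Dpp4). For P5 against P4 they ranged from -0.14 to 1.22 (Sis), -0.18 to 1.70 (Slc5a1), -0.24 to 1.45 (Slc2a5) and -0.14 to 1.68 (Anpep). For P2 against P4 they ranged from -1.04 to 0.28 (Slc2a5) and -1.61 to 0.31 (Slc15a1), and for P2 against P3 from -1.87 to 0.42 (Slc2a5). With 1 library left in a population, that library is assumed to vary like the others.

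Removing mitochondrial genes shifted the median of all genes by -0.20 for P1 against P4, by 0.14 for P2 against P1 and by 0.11 for the difference between EF1a effects, and gave -0.12 for Slc5a1, -0.14 for Slc2a5 and -0.014 for Dpp4 in P1 against P4.

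With the replicate block the counts were 7 over the 5 populations (5710 of all genes) and 7 for P2 against P4 (2391), against 3 and 1 without it. Deviations of same-numbered libraries correlated at 0.101 to 0.554 in 9 of 10 pairs of populations and at -0.0598 for P2 and P3. Pairing was taken only where every pair exceeded 0.1, so the fit without the block was kept. The pair below 0.1, P2 and P3, is not the one compared in P2 against P4, whose deviations correlated at 0.101.

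Single-gene values were tallied for P1, P2 and P5 against P4 and for P2 against P1 and P3. The tally leaves out P3 against P1 or P5 and the EF1a difference between OSCAR levels. Of its 850 values under an alternative, 727 kept direction and side of the threshold, 67 passed it newly, 34 no longer passed it and 22 changed sign.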
